A study of Mus musculus with 29 samples.

Results

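The genes described here are 10 transcripts by which astrocytes and their reaction to injury are commonly recognised: Gfap, Vim, Nes, Cd44, Aqp4, S100b, Aldh1l1, Sox9, Gja1 and Kcnj10. They were chosen by name, not by any measured value, and make up 10 of the 25746 genes in the count tables. All 10 passed the filter on low counts and were among the 17031 genes tested. Transcript levels were measured by RNA sequencing of 29 brain tissue samples in 8 groups, each treated as a separate mouse. Non-stroked tissue came from 4 wild-type (WT, C57BL/6 background), 3 Rag2-/- and 4 NSG mice. Tissue taken 21 days after a photothrombotic stroke (21 dpi), a clot induced by light in the right sensorimotor cortex, came from 4 WT, 3 WT-Tacr acute, 5 WT-Tacr delayed, 3 Rag2-/- and 3 NSG mice. WT-Tacr mice were WT mice given the calcineurin inhibitor tacrolimus by a subcutaneous osmotic pump, from the day of stroke (acute) or from 7 dpi (delayed). Mature T and B cells are absent from Rag2-/- mice, which share the C57BL background of the WT mice. NSG mice are on another background (NOD) and carry changes in Prkdc and Il2rg that also remove NK cells, so that strain and immune defect cannot be told apart in them. Per the study's methods the mice were adults of 3 months and both sexes. Non-stroked tacrolimus-treated mice were not analysed here, and the non-stroked WT mice served as reference for all WT and WT-Tacr groups. The study's methods describe the reference tissue as contralesional cortex while its results speak of naïve mice, so these samples are called non-stroked here. No source used here links a non-stroked sample to a stroked one, so these groups were compared as unpaired.

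Astrocytes are the glial cells that take up glutamate and potassium, line blood vessels with water channels and couple to each other through gap junctions. After injury they enlarge, fill with intermediate filaments and, next to a lesion, form a dense border around the damaged tissue. The filament genes Gfap, Vim and Nes and the hyaluronan receptor Cd44 are used as marks of this reactivity, whereas Aldh1l1, Sox9, Aqp4, S100b, Gja1 and Kcnj10 mark astrocytes in healthy brain. Vim and Cd44 are also made by microglia, macrophages, fibroblasts and vessel cells, Nes by endothelial and progenitor cells, and Sox9 by ependymal and progenitor cells. In a tissue piece, fewer cells of a type and less RNA per cell cannot be told apart.

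Total counts ran from 17789044 to 43403413 per mouse. The sample labels form 2 cohorts, Imm2 with 20 mice and a median of 37223696 counts, and TF with 9 mice and a median of 23155303 counts. All non-stroked, Rag2-/- and NSG mice were in Imm2 and all WT-Tacr delayed mice in TF. Stroked WT mice were split 2 and 2, and the WT-Tacr acute group held 1 Imm2 mouse (5m_1) and 2 TF mice (1_5 and 2_1). For 5m_1 and 1_5 the deposited table is named for a different mouse number of the same cohort than the sample's title, and each table was assigned to the sample it was deposited under. In the WT-Tacr delayed group, cohort and stroke cannot be told apart. Of the genes altered in the strains, Rag2 had at most 2 counts in any mouse and so checks no label, while Il2rg had 31 to 37 counts in stroked NSG and 58 to 137 counts in stroked WT mice. Without stroke Il2rg had 22 to 36 counts in NSG and 27 to 32 counts in WT mice, which does not tell these labels apart. In WT-Tacr acute mice it had 26 to 94 counts. A list of 8 astrocyte markers, which shares 3 genes with the 10 described here, summed to 5631 to 6356 CPM (the count scaled per 1000000 counts of the library) in non-stroked WT mice and 5333 to 7709 CPM in stroked WT mice. Over all 29 mice it ran from 4741 to 7709 CPM. Slc1a2 made up the largest part of this sum, with means of 4164 CPM in non-stroked and 3940 CPM in stroked WT mice. Singly, 6 of the 8 markers, the 3 shared genes among them, were higher and 0 lower in stroked WT mice (edgeR adjusted p below 0.05). Of all genes tested, 15.2% were higher and 11.6% lower at that threshold.

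The sequences just before the transcription start are shown for Gfap, Vim and Cd44, the members with the largest stroke responses, and for Gja1, the only one of the 8 members searched that held a match to the AP-1 motif in this window (Sox9 and Aqp4 were not searched). Each is the 250 bases before the start, on the gene's own strand, from RefSeq on GRCm38.p6. They lie at chr11:102897201-102897450 (minus strand), chr2:13574061-13574310 (plus strand), chr2:102901666-102901915 (minus strand) and chr10:56377050-56377299 (plus strand). Capitals mark matches, on either strand, to TTCNNNGAA (the GAS motif of STAT factors), TGANTCA (the AP-1 motif), TATAAA (the TATA box) and CCAAT (the CCAAT box).
Gfap: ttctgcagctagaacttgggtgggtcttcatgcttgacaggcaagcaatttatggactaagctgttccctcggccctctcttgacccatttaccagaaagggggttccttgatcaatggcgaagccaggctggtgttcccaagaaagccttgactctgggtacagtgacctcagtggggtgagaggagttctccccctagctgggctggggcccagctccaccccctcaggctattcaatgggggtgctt
Vim: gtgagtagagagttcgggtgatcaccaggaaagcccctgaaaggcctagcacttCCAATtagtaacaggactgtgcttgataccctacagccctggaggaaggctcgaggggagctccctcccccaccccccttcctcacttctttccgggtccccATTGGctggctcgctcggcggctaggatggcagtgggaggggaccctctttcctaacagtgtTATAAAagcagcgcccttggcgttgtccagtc
Cd44: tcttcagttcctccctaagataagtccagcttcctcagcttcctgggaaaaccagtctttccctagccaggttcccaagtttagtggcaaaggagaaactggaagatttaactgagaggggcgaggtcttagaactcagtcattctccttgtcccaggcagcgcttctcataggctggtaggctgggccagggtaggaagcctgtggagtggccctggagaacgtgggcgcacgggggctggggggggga
Gja1: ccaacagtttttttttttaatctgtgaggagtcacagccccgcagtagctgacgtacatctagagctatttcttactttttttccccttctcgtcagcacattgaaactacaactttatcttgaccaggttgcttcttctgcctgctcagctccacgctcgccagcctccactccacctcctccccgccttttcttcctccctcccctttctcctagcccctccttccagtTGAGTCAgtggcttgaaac
The Vim window held TATAAA, beginning 32 bases before the start, and 2 CCAAT matches, beginning 196 bases before it on the gene's strand and 94 bases before it on the other strand. The Gja1 window held TGANTCA, beginning 19 bases before the start. The Gfap and Cd44 windows held none of the 4 motifs, and TTCNNNGAA was in none of the 8 members' windows that the table holds. Among 32851 RefSeq windows of this length, 7.02% held TTCNNNGAA, 6.75% TGANTCA, 12.4% TATAAA and 33.8% CCAAT. A match is a run of letters and not a measured binding site.

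**Figure D1:**
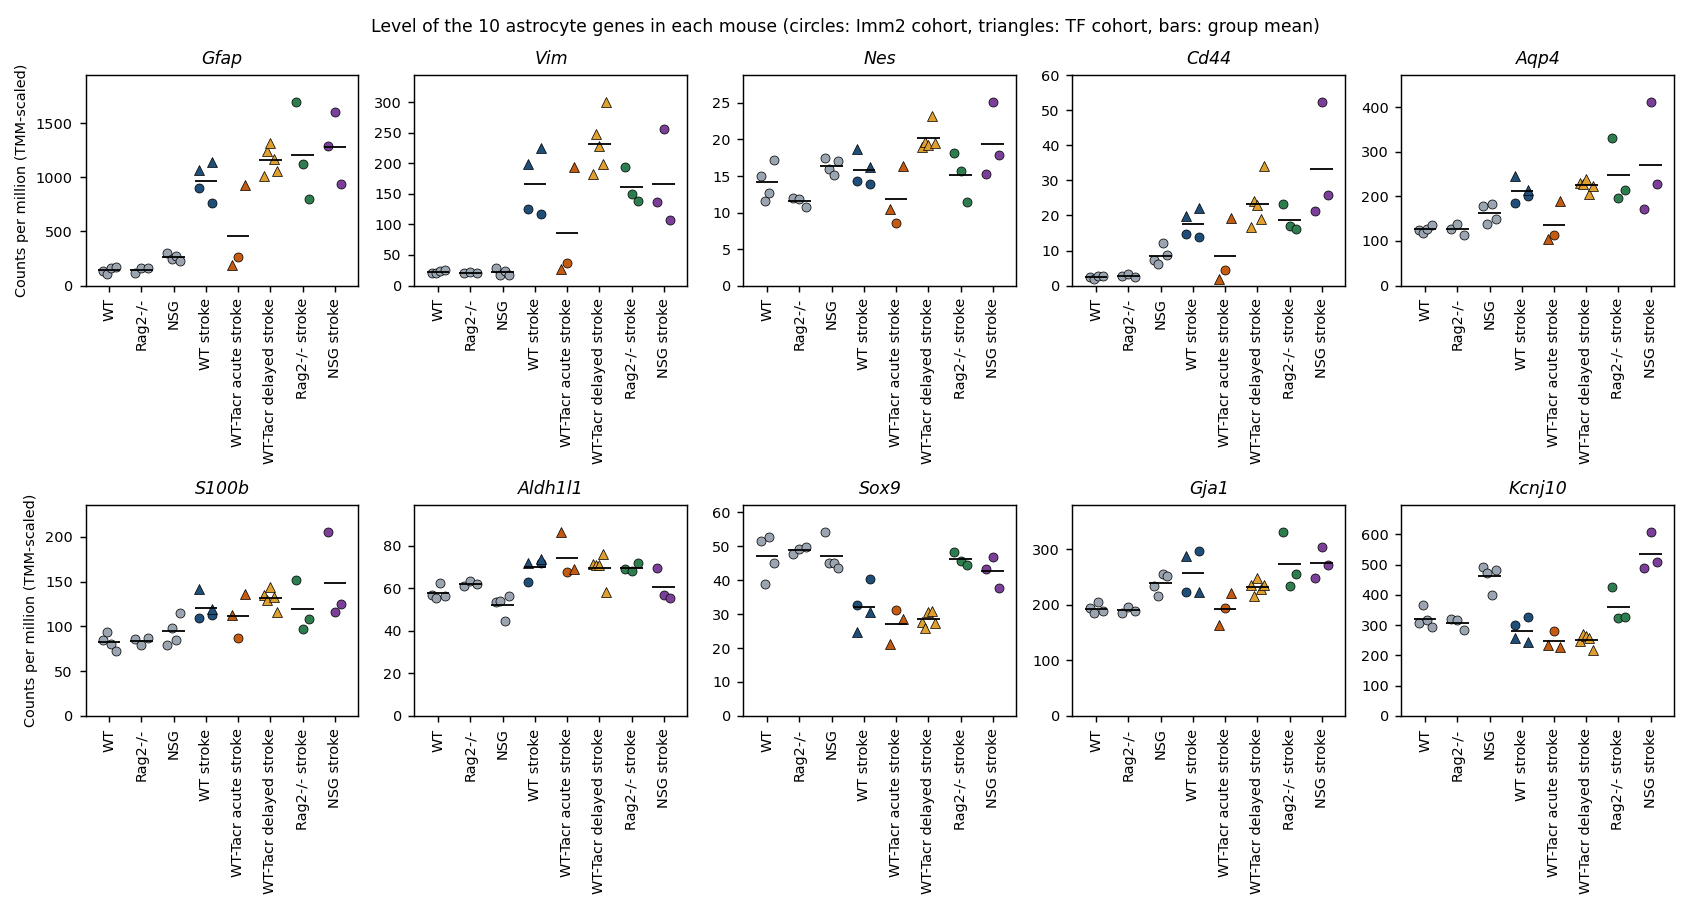
Level of each of the 10 genes in every mouse, as TMM-scaled CPM on linear axes that start at 0; circles are Imm2 mice, triangles TF mice, and bars the group means. For Gfap, Vim and Cd44 every stroked mouse other than WT-Tacr acute 5m_1 and 1_5 lay above every non-stroked mouse, narrowly so for Cd44 (13.9 CPM against 12.1 CPM in a non-stroked NSG mouse), and the mean of Sox9 was lowest in the 3 stroked groups that held TF mice.

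To place the genes on a common scale, CPM was divided by the summed exon length of each gene, giving CPM per kilobase. In non-stroked WT mice the order of mean levels per kilobase ran from Kcnj10 (59.3 ± 5.83, SD, n = 4) and S100b (55.8 ± 6.004) over Gfap (33.8 ± 7.43), Aqp4 (20.3 ± 1.23), Gja1 (18.8 ± 0.817), Aldh1l1 (12.8 ± 0.728), Sox9 (11.4 ± 1.56), Vim (4.70 ± 0.566) and Nes (2.20 ± 0.387) to Cd44 (0.365 ± 0.0710). Kcnj10 and S100b, and likewise Aldh1l1 and Sox9, lay within their SDs of each other. In stroked WT mice Gfap led with 230 ± 40.1 CPM per kilobase, followed by S100b with 81.4 ± 9.86 and Kcnj10 with 52.1 ± 6.98. Vim rose to the fourth place with 35.1 ± 11.3 and was within its SD of Aqp4 with 34.0 ± 4.10. Cd44, with 2.61 ± 0.583, stayed near the bottom of the order and within its SD of Nes, with 2.46 ± 0.340.

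Stroke in WT mice raised the filament genes Gfap and Vim 6.80-fold and 7.46-fold and the receptor gene Cd44 7.13-fold, raised Aqp4, S100b, Gja1 and Aldh1l1 by 1.67-fold at most, and lowered Sox9. Of the 10 genes, 7 were higher and 1 lower at an edgeR adjusted p below 0.05, the threshold used for all calls. Over all genes tested, 15.2% were called higher and 11.6% lower in this comparison. The median log2 fold change was 0.48 over the 10 genes and -0.0004 over all genes.

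Gfap encodes the main intermediate filament protein of mature astrocytes (ENSMUSG00000020932, GRCm38 chr11:102887336-102900912, minus strand). The 4 non-stroked WT mice had 102, 134, 162 and 172 CPM and the 4 stroked WT mice 765, 903, 1066 and 1144 CPM. The groups were wide apart, and Gfap was higher by 2.77 on the log2 scale (SE 0.335, edgeR adjusted p = 1.14e-05). Vim, which encodes vimentin (chr2:13573927-13582826, plus strand), went from 19.8, 20.3, 23.7 and 25.4 CPM to 117, 125, 199 and 225 CPM. Every stroked WT mouse lay above every non-stroked one, and the 2 TF mice were the 2 highest. Its log2 fold change was 2.90 (SE 0.412, edgeR adjusted p = 3.92e-05). Cd44 encodes a receptor for the matrix sugar hyaluronan (chr2:102811141-102901665, minus strand). It stood at 1.77, 2.56, 2.76 and 2.80 CPM without stroke and at 13.9, 14.8, 19.8 and 22.2 CPM after it. This is a log2 fold change of 2.83 (SE 0.444, edgeR adjusted p = 8.69e-05) from a low starting level. Nes encodes nestin, a filament protein of progenitor cells and some reactive astrocytes (chr3:87971078-87980451, plus strand). It had 11.6 to 17.2 CPM in non-stroked and 13.9 to 18.7 CPM in stroked WT mice, and these ranges overlapped. The log2 fold change of Nes was 0.16 with a 95% interval from -0.19 to 0.51 (edgeR adjusted p = 0.518).

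Among the genes of membrane transport and coupling, Aqp4, the water channel of astrocyte endfeet (chr18:15389496-15410982, minus strand), had 118 to 137 CPM in non-stroked and 186, 202, 213 and 246 CPM in stroked WT mice. It was higher by 0.74 on the log2 scale (SE 0.202, edgeR adjusted p = 0.00901). Gja1, which encodes the gap junction protein connexin 43 (chr10:56377330-56402513, plus strand), had 185 to 204 CPM and, after stroke, 223, 224, 287 and 296 CPM. Its log2 fold change was 0.42 (SE 0.108, edgeR adjusted p = 0.00672). Both genes were higher in each stroked WT mouse than in any non-stroked one. Kcnj10 encodes the potassium channel Kir4.1 (chr1:172341210-172374085, plus strand). It had 294, 306, 316 and 366 CPM without stroke and 243, 258, 300 and 325 CPM after it, with overlapping groups (log2 fold change -0.19, 95% interval -0.41 to 0.04, edgeR adjusted p = 0.212).

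S100b, a calcium-binding protein gene (chr10:76253853-76261159, plus strand), rose from 72.3 to 93.7 CPM in non-stroked to 109 to 142 CPM in stroked WT mice. The log2 fold change was 0.54 (SE 0.162, edgeR adjusted p = 0.0157). S100b overlaps Dip2a on the opposite strand, and the use of strand in counting was not given in the sources used here, so reads of the overlap cannot be assigned with certainty. Aldh1l1, which encodes a folate enzyme (chr6:90486427-90600203, plus strand), went from 55.2 to 62.5 CPM to 62.7, 71.7, 71.7 and 73.5 CPM. The lowest stroked mouse was just above the highest non-stroked one. Its log2 fold change of 0.28 (SE 0.0908, edgeR adjusted p = 0.0265) was the smallest among the members called in WT mice, and 3 other gene models overlap it. Sox9, the transcription factor gene that marks astrocyte nuclei (chr11:112782224-112787760, plus strand), was the only member called lower. It had 38.8, 45.1, 51.7 and 52.7 CPM without stroke and 24.7, 30.5, 32.7 and 40.2 CPM after it. 1 stroked mouse lay inside the non-stroked range, and the log2 fold change was -0.55 (SE 0.124, edgeR adjusted p = 0.00220). The call of Aldh1l1 was lost without any 1 of the mice 1Wt, 3Wt, 5Wt, 5_2 and 5_3 (log2 fold change 0.25 to 0.27), and that of S100b without 5Wt (0.49) or 5_2 (0.46).

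**Figure D2:**
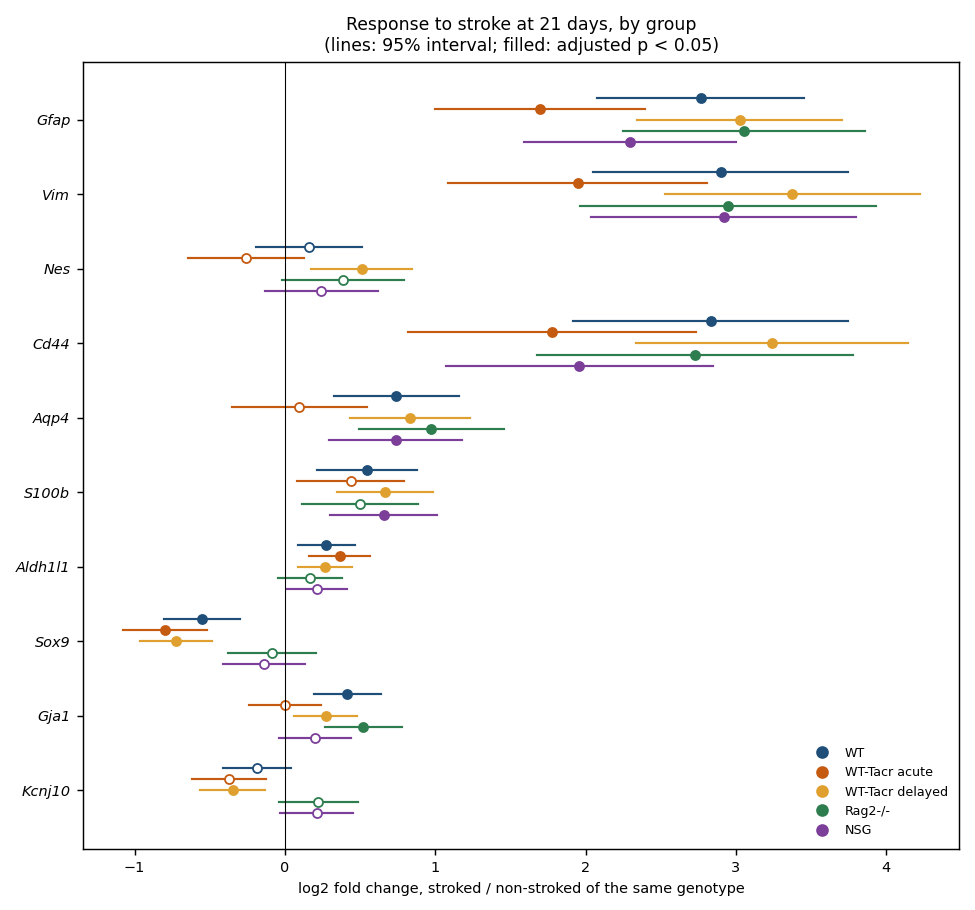
Log2 fold change of each gene between stroked and non-stroked mice of the same genotype, for the 5 stroked groups; points are estimates, lines 95% intervals, and filled points have an edgeR adjusted p below 0.05. Gfap, Vim and Cd44 were called higher in all 5 groups, and Sox9 was called lower in WT, WT-Tacr acute and WT-Tacr delayed mice, the groups that held TF mice.

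Cohort moved with several of these values. In the 2 Imm2 stroked WT mice alone, set against the Imm2 controls, only Gfap, Vim and Cd44 were called, with log2 fold changes of 2.55, 2.45 and 2.54. Over all genes, 1528 of 17530 tested were called in that fit, against 4579 of 17031 in the fit of all mice without a cohort term. With cohort as a covariate in the fit of all mice, Gfap, Vim, Cd44 and Gja1 were called higher and Sox9 lower in stroked WT mice. There, 2096 of 17031 genes tested were called. The cohort term itself, which rests on the stroked WT and WT-Tacr acute mice since no other group spans both cohorts, was called for Vim (TF above Imm2 by 1.12 on the log2 scale, edgeR adjusted p = 0.0340), Sox9 (-0.37, edgeR adjusted p = 0.0191) and Kcnj10 (-0.30, edgeR adjusted p = 0.0297). It was called for 27.6% of all genes tested. Sox9 in stroked WT mice averaged 36.5 CPM in Imm2 and 27.6 CPM in TF, against 47.1 ± 6.45 CPM (SD, n = 4) in non-stroked WT mice. Kcnj10 averaged 313 CPM in Imm2 and 251 CPM in TF, against 321 ± 31.5 CPM without stroke. A lower Sox9 in stroked WT mice held in direction within Imm2 (log2 fold change -0.36, not called) and with the covariate (-0.38, called), whereas Kcnj10 was near its non-stroked level within Imm2 (log2 fold change -0.03) and lower with the TF mice alone (-0.36, called). Markers of brain regions stood apart by cohort in the same 4 stroked WT mice. The sum of 4 cortex markers was 1660 and 1819 CPM in the Imm2 mice and 1024 and 1102 CPM in the TF mice, against 1783 to 2015 CPM without stroke. For 4 striatum markers the sums were 210 and 356 CPM in Imm2 and 554 and 587 CPM in TF mice, against 165 to 294 CPM without stroke. For 5 choroid plexus markers they were 12.7 and 15.03 CPM in Imm2 and 157 and 259 CPM in TF mice, although 2 of the non-stroked WT mice held 438 and 809 CPM. The part of the region sampled in the levels of Sox9 and Kcnj10 was not tested.

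Markers of other cells moved in the same mice. In stroked WT mice 7 of 8 microglial markers were called higher, and their summed level went from 239 to 280 CPM to 471 to 633 CPM. Of 6 fibroblast markers, 5 were called higher (83.6 to 95.8 CPM summed, then 319 to 686 CPM), and all 7 leukocyte genes that passed the filter, of 10 listed, were called higher (2.91 to 3.85 CPM summed, then 12.5 to 24.6 CPM). Of 6 neuronal markers 3 were called lower, and of 6 endothelial markers 4. The part of these cells in the levels of Vim, Cd44 and the other members was not tested.

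**Figure D3:**
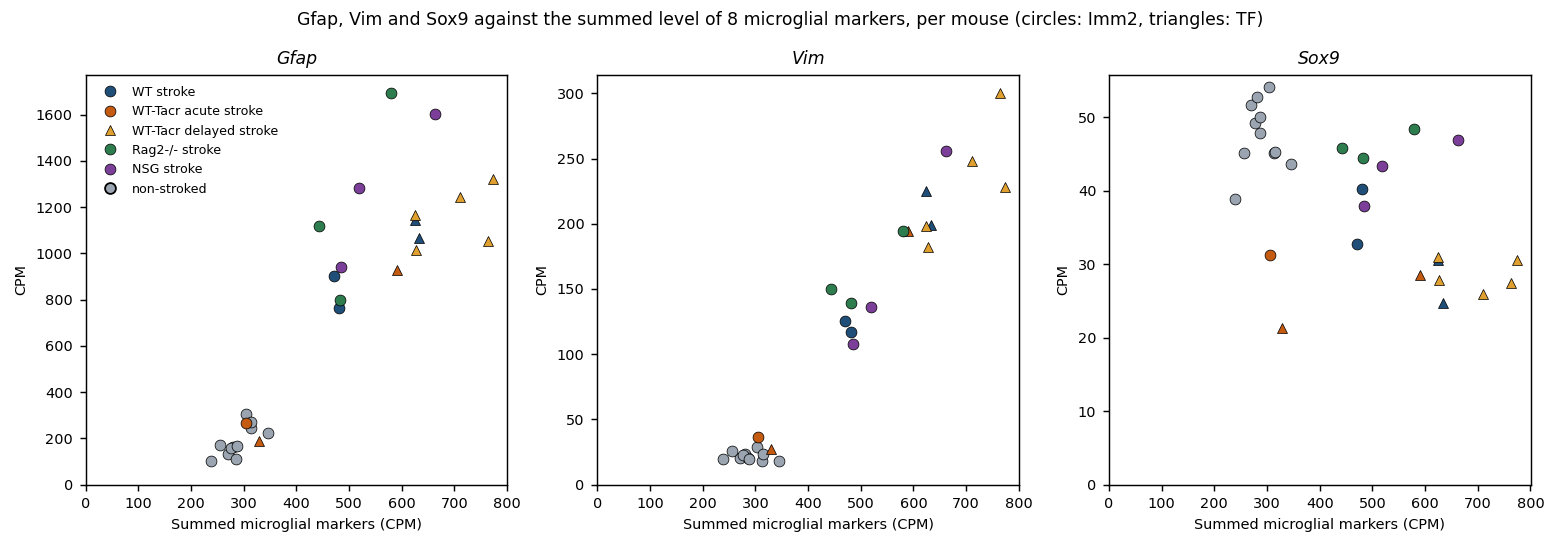
Gfap, Vim and Sox9 in each mouse against the summed CPM of 8 microglial markers; circles are Imm2 and triangles TF mice, grey points non-stroked. WT-Tacr acute mice 5m_1 and 1_5 lay at or near the non-stroked mice for Gfap, Vim and the microglial sum and yet low for Sox9.

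Stroke in Rag2-/- mice, which lack T and B cells, raised Gfap, Vim, Cd44, Aqp4 and Gja1, while the Sox9 values before and after stroke overlapped. In all, 5 genes were called higher and 0 lower, against 6.71% and 1.53% of all genes tested. Gfap had 112, 160 and 165 CPM in non-stroked and 800, 1120 and 1694 CPM in stroked Rag2-/- mice, with no overlap and a log2 fold change of 3.05 (SE 0.391, edgeR adjusted p = 6.80e-05). Vim went from 19.8, 20.3 and 22.6 CPM to 139, 150 and 195 CPM (log2 fold change 2.95). Cd44 went from 2.45, 2.60 and 3.43 CPM to 16.1, 17.0 and 23.2 CPM (log2 fold change 2.73). The mouse 4f_1 was the highest of its group for all 3 genes. Aqp4, with 196, 215 and 331 CPM after stroke and 113 to 137 CPM before, was higher by 0.97 (edgeR adjusted p = 0.00976). Gja1, with 233, 256 and 330 CPM against 185 to 197 CPM, was higher by 0.52 (edgeR adjusted p = 0.00957). Without 4f_1, which also had a high choroid plexus signal (1569 CPM summed over 5 markers, against 8.67 and 10.8 CPM in the other 2 stroked Rag2-/- mice), only Gfap, Vim and Cd44 were called, with log2 fold changes of 0.70 for Aqp4 and 0.36 for Gja1. The Gja1 call was also lost without the non-stroked mouse 1Rag (0.50) and the Aqp4 call without 4Rag (0.89). Sox9 had 47.8 to 49.97 CPM before and 44.5, 45.8 and 48.3 CPM after stroke (log2 fold change -0.09, 95% interval -0.38 to 0.21). Kcnj10 had 285, 318 and 321 CPM before and 324, 327 and 427 CPM after it, so that the groups did not overlap although the change was not called (log2 fold change 0.22, edgeR adjusted p = 0.325). Its highest value was in 4f_1. There the sum of 6 oligodendrocyte markers was 9792 CPM, against 6363 and 6349 CPM in the other 2 stroked Rag2-/- mice. The part of those cells in the members' levels was not tested.

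Stroke in NSG mice raised 5 of the 10 genes and lowered 0, with 13% of all genes called higher and 8.89% lower. Gfap rose from 225, 243, 268 and 304 CPM to 939, 1284 and 1601 CPM (log2 fold change 2.29, SE 0.343, edgeR adjusted p = 9.78e-05). Vim rose from 17.8 to 29.1 CPM to 108, 136 and 256 CPM (log2 fold change 2.92), and Cd44 from 6.20, 7.17, 8.66 and 12.1 CPM to 21.3, 25.8 and 52.4 CPM (log2 fold change 1.96). In mouse 1f_2 all 3 genes were at the top of the group, and the fibroblast marker sum was 1331 CPM there against 223 and 359 CPM in the other 2 mice. Aqp4, with 138 to 183 CPM before and 172, 228 and 412 CPM after stroke, was called (log2 fold change 0.74, edgeR adjusted p = 0.0164), although 1f_1 lay inside the non-stroked range. S100b was called higher as well (log2 fold change 0.66, edgeR adjusted p = 0.00909), with its highest value, 205 CPM, in 1f_1. Each of these 2 calls rested on a single mouse: without 1f_2 the log2 fold change of Aqp4 was 0.29, without 1f_1 that of S100b was 0.34, and neither was called. The sum of 6 oligodendrocyte markers was 9277 CPM in 1f_1 and 6590 and 6221 CPM in the other 2 stroked NSG mice. The part of those cells in the S100b level was not tested. In a fit of the NSG mice alone only Gfap, Vim and Cd44 were called. Sox9 had 43.6 to 54.1 CPM before and 37.9, 43.4 and 46.8 CPM after stroke (log2 fold change -0.14, 95% interval -0.41 to 0.13).

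Whether the stroke response of a gene differed between genotypes was tested as a difference of differences. None of the 10 genes was called for Rag2-/- against WT mice, where 0% of all genes tested were called, or for NSG against WT mice, where 0.0294% were. At an unadjusted edgeR p below 0.05 the count was 2 of the 10 genes in either comparison, and 713 and 2167 of all genes. The intervals were wide for the reactive genes. For Gfap the response differed from that of WT mice by 0.28 (95% interval -0.70 to 1.27) for Rag2-/- and -0.47 (-1.42 to 0.48) for NSG animals. For Cd44 these values were -0.11 (-1.45 to 1.24) and -0.88 (-2.13 to 0.38). The 2 genes under the unadjusted threshold were Sox9 and Kcnj10 in both comparisons. Sox9 responded higher than in WT mice by 0.47 in Rag2-/- (95% interval 0.08 to 0.85, edgeR adjusted p = 0.950) and by 0.41 in NSG mice (0.04 to 0.79, edgeR adjusted p = 0.346). For Kcnj10 the values were 0.41 (0.06 to 0.76, edgeR adjusted p = 0.950) and 0.40 (0.07 to 0.73, edgeR adjusted p = 0.323). All Rag2-/- and NSG mice were Imm2 mice, and the 2 TF mice in the stroked WT group were the 2 lowest for both genes.

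**Figure D4:**
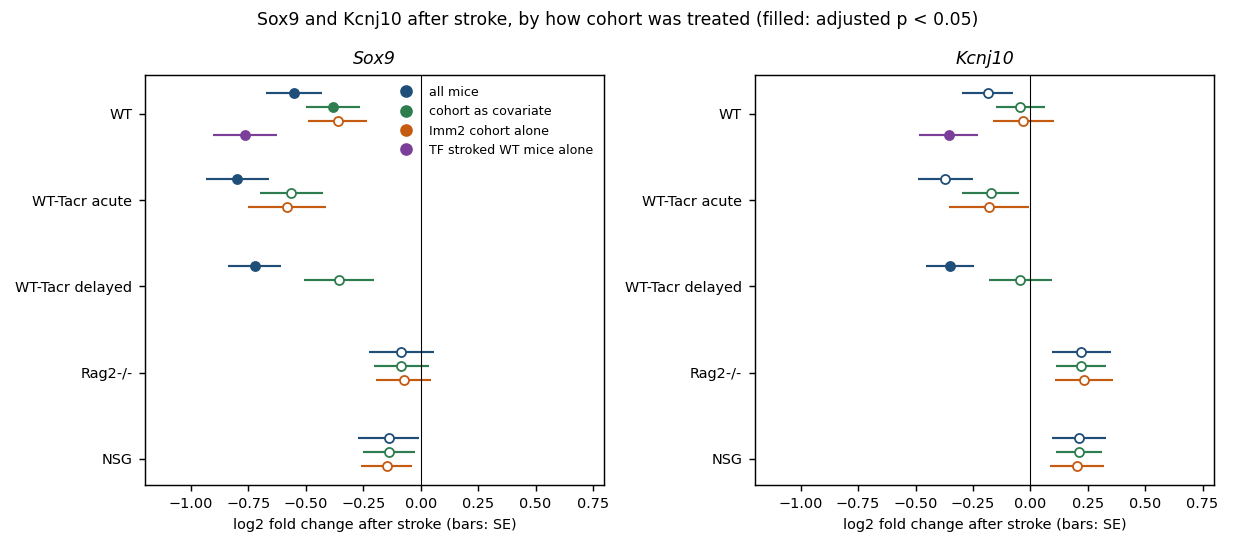
Log2 fold change of Sox9 and Kcnj10 after stroke in each group, from the fit of all mice, with cohort as covariate, within the Imm2 cohort, and with the TF stroked WT mice alone; bars are SEs and filled points have an edgeR adjusted p below 0.05. Sox9 in WT mice was below 0 in all 4 fits (-0.36 to -0.77), while Kcnj10 in WT mice lay between -0.03 and -0.36.

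Without stroke, NSG mice already differed from WT mice in part of the set. Cd44 and Kcnj10 were called higher, 2 of the 10 genes, against 4.84% of all genes tested called higher. Cd44 had 6.20 to 12.1 CPM in NSG against 1.77 to 2.80 CPM in WT, a log2 fold change of 1.79 (SE 0.439, edgeR adjusted p = 0.00816). Kcnj10 had 400, 472, 483 and 491 CPM in NSG mice, all above the 294 to 366 CPM of WT, a log2 fold change of 0.53 (SE 0.110, edgeR adjusted p = 0.00199). Gfap, with 225 to 304 CPM, also lay above the WT range of 102 to 172 CPM in every NSG mouse, but was not called in the fit of all groups (log2 fold change 0.87, edgeR adjusted p = 0.0850). In the fit of these 2 groups alone it was called (edgeR adjusted p = 0.00492), together with Cd44, Aqp4, Gja1 and Kcnj10. Against non-stroked Rag2-/- mice the same 2 genes, Cd44 (1.59, edgeR adjusted p = 0.0466) and Kcnj10 (0.58, edgeR adjusted p = 0.00215), were called higher in NSG mice, with 3.07% of all genes called higher. The Cd44 call in this comparison was lost when any 1 of 6 of the 7 mice was left out. Vim (log2 fold change -0.02) and Sox9 (0.00 after rounding) were near the WT level in NSG mice. Non-stroked Rag2-/- and WT mice differed in none of the 10 genes by edgeR's test, nor did any of the 10 reach an unadjusted p below 0.05, while 0.00587% of all genes tested were called and 349 had an unadjusted p below 0.05. Kcnj10 was the only member at a higher level in stroked NSG mice (490, 508 and 607 CPM) than in every mouse of every other stroked group (219 to 427 CPM). The share of all genes with such a separation was not counted.

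Tacrolimus given from the day of stroke gave a group of unlike mice. For Gfap the 3 WT-Tacr acute mice had 267 (5m_1), 189 (1_5) and 928 CPM (2_1), against 765 to 1144 CPM in stroked and 102 to 172 CPM in non-stroked WT mice. For Vim the values were 36.2, 27.6 and 194 CPM, and for Cd44 4.53, 1.79 and 19.3 CPM, in the same order of mice. Mouse 2_1 lay within the stroked WT range for all 3 genes. Mouse 5m_1 lay above the non-stroked and below the stroked WT range for all 3. Mouse 1_5 lay above the non-stroked WT range for Gfap and Vim (102 to 172 and 19.8 to 25.4 CPM) and inside it for Cd44 (1.77 to 2.80 CPM). Against non-stroked WT mice 4 genes were called higher and 1 lower, where 6.18% and 2.36% of all genes tested were called. The 4 were Gfap (log2 fold change 1.69, edgeR adjusted p = 0.00577), Vim (1.95, 0.00865), Cd44 (1.78, 0.0234) and Aldh1l1 (0.36, 0.0257). Without mouse 2_1 the log2 fold changes of Gfap, Vim and Cd44 were 0.67, 0.51 and 0.39 and none was called. Without it Aldh1l1 was not called either (0.40), and with cohort as a covariate 0 of the 10 genes were called at edgeR's adjusted p. Over all genes the number called fell from 1454 to 52 with the covariate, to 35 in the fit of these 2 groups alone, and without 2_1 to 31 higher and 6 lower. Cd44 and Aldh1l1 also lost their calls without the non-stroked mouse 1Wt or 3Wt, and Aldh1l1 without 5Wt (0.35) or 1_5 (0.22). Without 5m_1, Kcnj10 was called lower (-0.49) and S100b higher (0.57).

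Sox9 was lower in all 3 WT-Tacr acute mice. It had 31.2 CPM in 5m_1, 21.3 CPM in 1_5 and 28.5 CPM in 2_1, all under the 38.8 to 52.7 CPM of non-stroked WT controls, and was lower by a log2 fold change of -0.80 (SE 0.136, edgeR adjusted p = 0.00219). Without mouse 2_1 it was still called (-0.85, edgeR adjusted p = 0.0143), the only one of the 10 genes for which this held. The call was lost with cohort as a covariate (-0.56, edgeR adjusted p = 0.0966) and in the fit of only these 2 groups (-0.79, edgeR adjusted p = 0.0873). The 2 mice with the lowest Gfap were thus not apart from the third in Sox9, and 1_5, the lowest for Gfap, was also the lowest for Sox9. The microglial marker sum was 305 CPM in 5m_1, 329 CPM in 1_5 and 590 CPM in 2_1, and the fibroblast sum 116, 84.8 and 429 CPM. How much lesioned tissue each piece held was not given in the sources used here, and its part in these levels was not tested.

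Set directly against stroked WT mice, none of the 10 genes was called in WT-Tacr acute mice, as 0% of all genes tested were called. At an unadjusted edgeR p below 0.05 the count was 6 of 10, and 2168 of all genes. Gfap was lower by a log2 fold change of -1.07 (95% interval -1.79 to -0.36, edgeR adjusted p = 0.311) and Aqp4 by -0.65 (-1.10 to -0.19, edgeR adjusted p = 0.311). Gja1 had 164, 193 and 222 CPM, all under the 223 to 296 CPM of stroked WT mice (log2 fold change -0.41, edgeR adjusted p = 0.311). With mouse 2_1 left out, 6 genes were called lower than in stroked WT mice: Gfap (-2.08), Vim (-2.36), Cd44 (-2.42), Aqp4 (-0.95), Nes (-0.72) and Gja1 (-0.52). In that fit 5.89% of all genes tested were called lower and 2.44% higher. Within the TF cohort, with 2 mice in each group, none was called, as 0 of 15984 genes tested were called.

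Tacrolimus begun at 7 dpi left Gfap, Vim and Cd44 high in every stroked mouse. In the 5 WT-Tacr delayed mice Gfap had 1015 to 1320 CPM (median 1165), Vim 182 to 300 CPM (median 228) and Cd44 16.7 to 34.2 CPM (median 23.01). Against non-stroked WT mice 8 genes were called higher and 2 lower, where 27.6% of all genes tested were called in each direction. The log2 fold changes were 3.03 for Gfap, 3.38 for Vim, 3.24 for Cd44, 0.83 for Aqp4, 0.67 for S100b, 0.51 for Nes, 0.27 for Gja1 and 0.27 for Aldh1l1, and -0.72 for Sox9 and -0.35 for Kcnj10. With cohort as a covariate only Gfap, Vim and Cd44 were called, at log2 fold changes of 2.36, 2.26 and 2.44. Nes, called in no other group, had 19.0, 19.2, 19.5, 19.7 and 23.3 CPM against 11.6 to 17.2 CPM without stroke, and with the covariate its log2 fold change was 0.08. The Gja1 call was lost without any 1 of the mice 1Wt, 3Wt, 5Wt and 3_5 (0.25 to 0.27). Markers of other cells and regions were called in the same comparison. Higher were 7 of 8 microglial markers (625 to 773 CPM summed, against 239 to 280 CPM), 5 of 6 fibroblast markers (397 to 1597 against 83.6 to 95.8 CPM), all 7 leukocyte genes tested (22.0 to 41.3 against 2.91 to 3.85 CPM), 4 of 5 ependymal and 3 of 4 striatum markers. Lower were 4 of 6 neuronal markers (4294 to 5104 against 6920 to 7694 CPM) and all 4 cortex markers (809 to 1208 against 1783 to 2015 CPM). With the covariate none of the ependymal, striatum, neuronal and cortex markers was called by edgeR's test, while 7 microglial, 5 fibroblast and 4 leukocyte genes were. Their part in the members' levels was not tested. None of the 10 genes was called against stroked WT mice, where 0% of all genes tested were called. At an unadjusted edgeR p below 0.05 the count there was 1 gene, Nes (log2 fold change 0.35, edgeR adjusted p = 0.230), and 3455 of all genes. The interval for Gfap ran from -0.35 to 0.87 and for Sox9 from -0.41 to 0.07.

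Delayed and acute treatment were compared directly in stroked mice. In all, 5 of the 10 genes were called higher with delayed treatment, against 10.4% of all genes tested called higher. These were Gfap (log2 fold change 1.33, edgeR adjusted p = 0.0127), Vim (1.43, 0.0201), Cd44 (1.46, 0.0239), Nes (0.77, 0.0108) and Aqp4 (0.73, 0.0196). For Gfap, Nes and Aqp4 each delayed mouse was above each acute one, and for Vim and Cd44 mouse 2_1 lay among the delayed mice. The calls did not hold when either 5m_1 or 1_5 was left out (0 genes each), in the fit of these 2 groups alone (0 genes) or within the TF cohort (0 genes), where the log2 fold changes were 1.07, 1.08, 1.16, 0.61 and 0.65. Over all genes tested, 0 of 17260 were called without 5m_1 and 0 of 17264 without 1_5. The fit of the 2 groups alone gave 0 of 15741 and the TF cohort 0 of 15984, so that every call was lost and not only those of the members. With cohort as a covariate Gfap (1.18, edgeR adjusted p = 0.0363), Vim (1.21, 0.0457) and Nes (0.65, 0.0333) were called, while Cd44 (1.27, 0.0617) and Aqp4 (0.65, 0.0606) were not, with 5.16% of all genes called higher. Without the delayed mouse 5_5, Vim (1.32) and Cd44 (1.29) were not called, and without 2_1 Gja1 was called too (0.36). For Sox9 and Kcnj10 the estimates were 0.07 and 0.02 (95% intervals -0.19 to 0.34 and -0.21 to 0.26). Other markers moved between the same groups. With delayed treatment 7 of 8 microglial, 5 of 6 fibroblast, 3 of 5 ependymal and 2 of 5 choroid plexus markers were called higher, and 4 of 6 neuronal and 3 of 4 cortex markers lower. In 5m_1 and 1_5 the neuronal sum was 7616 and 7055 CPM and the cortex sum 2053 and 1648 CPM, against 5429 and 1155 CPM in 2_1 and the delayed ranges of 4294 to 5104 and 809 to 1208 CPM. The part of these cells and regions in the 5 calls was not tested.

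**Figure D5:**
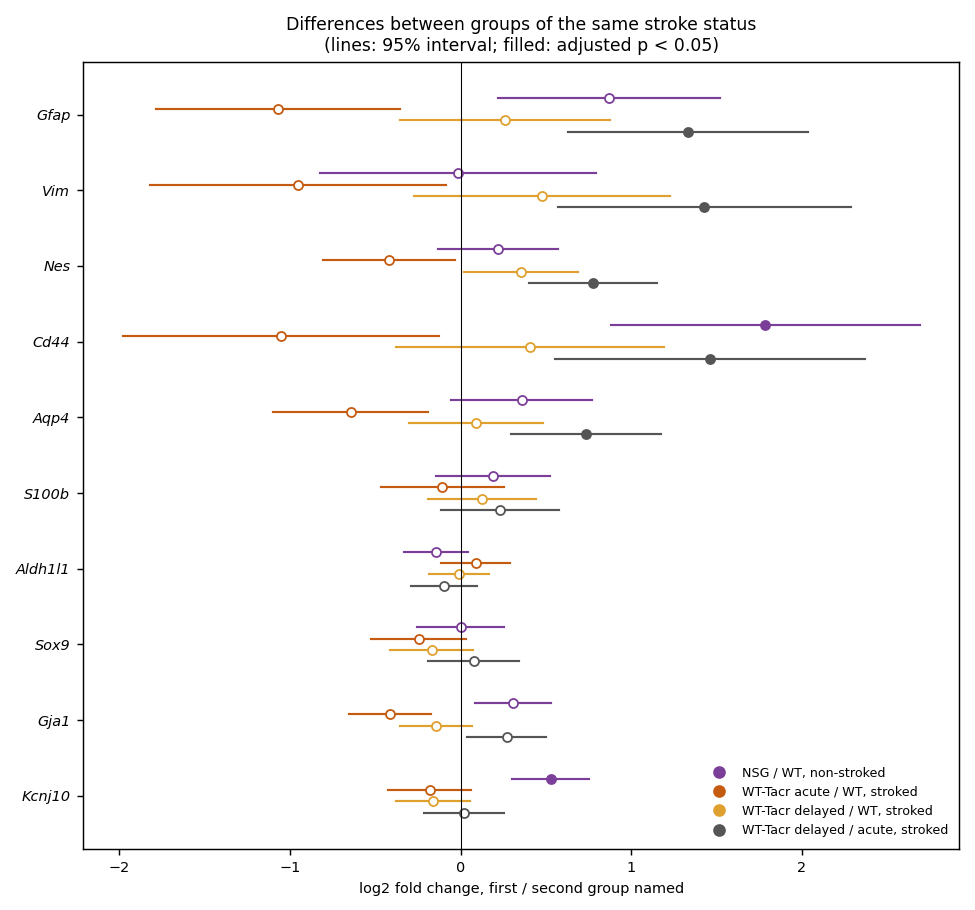
Log2 fold change of each gene between groups of the same stroke status; points are estimates, lines 95% intervals, and filled points have an edgeR adjusted p below 0.05. Cd44 and Kcnj10 were higher in non-stroked NSG than WT mice, and the filled grey points are the 5 genes higher with delayed than acute tacrolimus.

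The stroke responses of the remaining pairs of groups were set against each other after the values had been seen. Sox9 and Kcnj10 responded higher in NSG than in WT-Tacr delayed mice, by 0.58 (edgeR adjusted p = 0.0297) and 0.56 (edgeR adjusted p = 0.0224), in a comparison in which 15.4% of all genes tested were called. With cohort as a covariate the values were 0.22 and 0.26 and neither was called. Without the covariate, an unadjusted edgeR p below 0.05 took in 3 of the 10 genes and 34% of all genes in this comparison. None of the 10 genes was called for NSG against Rag2-/- mice (0 of all genes tested), for Rag2-/- against either WT-Tacr group (0 of all genes) or for NSG against WT-Tacr acute mice (12 of all genes). At an unadjusted edgeR p below 0.05 the members counted 0 for NSG against Rag2-/-, 6 and 2 for Rag2-/- against WT-Tacr acute and delayed, and 3 for NSG against WT-Tacr acute mice. The same threshold took in 9.38%, 13.2%, 23.9% and 17.2% of all genes, in this order, so that the count for Rag2-/- against WT-Tacr delayed mice was near that of all genes.

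Other genes of astrocyte function were read from fixed lists. In stroked WT mice 15.2% of all genes tested were called higher and 11.6% lower. Of 8 genes of glutamate uptake and metabolism, 3 were called higher and 0 lower in stroked WT mice, among them Cbs (log2 fold change 0.46) and the glutamate transporter gene Slc1a3 (0.39), with a median of 0.20. Of 10 partners of the potassium, water and coupling genes, 4 were called higher and 0 lower, led by Gjb6, which encodes connexin 30 (30.8 to 38.5 CPM, then 48.7 to 76.3 CPM, log2 fold change 0.87), and Mlc1, an endfoot membrane protein gene (0.85). Gjb6 and its partner Gja1 were therefore both higher, while Kcnj10 was not. Of 10 astrocyte transcription factors, 4 were called higher and 1 lower, the latter near the 11.6% of all genes. Id3 went from 10.2 to 13.3 CPM to 19.8 to 42.8 CPM (log2 fold change 1.47) and the Notch target Hes5 was higher by 0.69. Rorb, the one called lower, had 61.6 to 70.8 CPM before and 29.5 to 53.4 CPM after stroke (log2 fold change -0.69), a fall of similar size to that of Sox9. Rorb is also a gene of cortical layer neurons.

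Of 12 receptor and secreted protein genes, 7 were called higher and 0 lower, again against 15.2% and 11.6% of all genes tested. Apoe, the lipid carrier gene, had 948 to 1219 CPM without and 2958 to 3656 CPM with stroke (log2 fold change 1.61), and the matrix protein gene Sparc was higher by 1.05. Of 12 filament partner and border genes, 4 were called higher and 1 lower, the latter near the share of all genes. Spp1, which encodes osteopontin and is made mostly by microglia and macrophages, was higher by 4.87 (3.64 to 7.78 CPM, then 78.0 to 247 CPM), and Msn, which encodes moesin, by 1.19. Ncan, the proteoglycan neurocan gene, was lower by a log2 fold change of -0.27 (edgeR adjusted p = 0.0365).

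Reactive astrocyte lists from the literature, named pan-reactive, A1 and A2, were read in the same way. In stroked WT mice 9 of 10 pan-reactive, 10 of 12 A1 and 10 of 12 A2 genes were called higher and 0 lower, with median log2 fold changes of 2.49, 1.74 and 1.83, where 15.2% of all genes were called higher. The iron-binding lipocalin gene Lcn2 went from 0.0272 to 0.292 CPM to 21.1 to 106 CPM, and Steap4 from 0.171 to 0.577 CPM to 6.61 to 35.2 CPM. Complement C3 went from 0.114 to 1.29 CPM to 46.8 to 178 CPM and the complement regulator gene Serping1 from 3.76 to 6.34 CPM to 24.7 to 53.5 CPM. Tgm1, a transglutaminase gene, had 2 to 3 counts per mouse without and 153 to 487 counts with stroke, and Ptx3 2 to 9 and 37 to 175 counts. Several of these genes are also made by microglia, macrophages and vessel cells. The numbers called higher for the 3 lists were 7, 6 and 4 in WT-Tacr acute (6.18% of all genes), 10, 11 and 11 in WT-Tacr delayed (27.6%), 9, 8 and 6 after stroke in Rag2-/- mice (6.71%), and 10, 9 and 8 after stroke in NSG mice (13%). In WT-Tacr acute mice 1, 1 and 0 were left with cohort as a covariate (0.258% of all genes) and likewise without mouse 2_1 (0.18%), and 0 of each in the fit of these 2 groups alone (0.0819%). In WT-Tacr delayed mice 7, 9 and 4 were called with the covariate (5.71%), and in stroked WT mice 8, 9 and 7 (7.42%). No member of any of the 3 lists was called lower after stroke.

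The genes with the most similar pattern were sought among the 2 with the highest Pearson correlation of log2 CPM with each member over the 18 stroked mice. These values describe mice that share groups and cohorts. They were Slc14a1 (r = 0.972) and Apoe (0.964) for Gfap, Tlr2 (0.978) and Milr1 (0.977) for Vim, Cxcl16 (0.972) and Apoc1 (0.968) for Cd44, and Lrmp (0.937) and Gpam (0.924) for Nes. For Aqp4 they were St8sia6 (0.930) and Aldh1l2 (0.927), for Gja1 Prrg1 (0.945) and Gm973 (0.938), and for Kcnj10 Zfp729a (0.943) and Padi2 (0.937). For S100b they were S100a16 (0.911) and Aif1l (0.911), for Aldh1l1 Cd164l2 (0.857) and Orc6 (0.856), and for Sox9 Gm43571 (0.925). Over the 11 non-stroked mice the same pairs ran from r = -0.261 for Sox9 and Gm43571 to 0.918 for Kcnj10 and Zfp729a. They gave 0.0346 for Vim and Tlr2, a receptor gene of microglia and macrophages, and 0.881 for Gfap and Apoe. For Cd44 and Apoc1 the value was 0.880, and for S100b and Aif1l -0.0311. Within the 10 genes, Gfap, Vim and Cd44 were tied most closely over the stroked mice (r = 0.918 to 0.935), while Sox9 and Vim gave r = 0.181 and Aldh1l1 and Cd44 r = -0.633.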

How the data were processed

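RNA was measured in 29 samples of brain tissue, each treated as 1 mouse. The sources used here do not state that each sample came from a different animal. The numbers of RNA sequencing animals in the study's methods differ from the samples here for tacrolimus-treated, Rag2-/- and NSG mice. Per the study's methods, the authors took total RNA through polyA selection and analysed it with edgeR. The deposited values are raw whole-number read counts per gene, 1 table per sample, as the authors left them. The aligner, the genome build and the use of strand in counting are not given in the sources used here. Names and positions for 25635 of 25746 gene IDs came from GENCODE M21 (GRCm38), and promoter sequences from RefSeq (GRCm38.p6), where 8 of the 10 members were matched. Gfap, Cd44 and Aqp4 each overlap 1 gene model on the opposite strand.

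From the counts, genes were filtered with filterByExpr by group, scaled by TMM and tested by edgeR's quasi-likelihood method (edgeR 4.0.16, R 4.3.3; a single fit of 8 groups, 17031 genes, Benjamini-Hochberg adjustment over all of them). A gene is called at an adjusted p below 0.05. CPM is the count per 1000000 of the TMM-scaled library total; the SE is the absolute log2 fold change over the square root of F. Groups came from the sample labels. Total counts ran from 17789044 to 43403413. Counting error was not set against the spread between mice for single genes, and Cd44 had only 65 to 104 counts in non-stroked WT mice. Comparisons were stroked against non-stroked mice of a genotype, non-stroked genotypes, differences of stroke responses, and stroked WT-Tacr against WT mice and each other. Alternatives were RLE scaling, DESeq2 1.42.0, no filter, an added fold limit, cohort as covariate, fits within a cohort or of only the groups compared, a replicate block, and leaving out each mouse. On simulated data of 17000 genes for stroke in WT mice, 187 of 200 changed genes were recovered with 13 false calls.

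The members, lists and comparisons were chosen with earlier results of these data known. All members are named. From each list of related genes the 2 most raised and the 2 most lowered among those called in stroked WT mice are named, and for each member the 2 genes with the highest correlation over the stroked mice. A gene that this rule selects for Sox9 is not reported here. Fits with the TF stroked WT mice alone, the cohort term, counts of the gene lists under other settings and 5 further differences of stroke responses were added after the values were seen.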

Additional observations from a re-analysis of the deposited data

Results flagged for a closer look

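In groups of 4 or 5 mice, a mouse was singled out where its gap to the nearest other mouse took up more of the group's range than Dixon's 95% value allows. Of 40 such sets of values 3 were singled out, where chance gives about 1 in 20. The WT-Tacr delayed mouse 4_3 had the highest Nes, 23.3 CPM, against 19.0 to 19.7 CPM in the other 4 mice. The stroked WT mouse 2m_3 had the lowest Aldh1l1, 62.7 CPM, against 71.7 to 73.5 CPM. The non-stroked NSG mouse 1NSG had the highest Sox9, 54.1 CPM, against 43.6 to 45.2 CPM, and its choroid plexus marker sum was 1176 CPM, the highest of its group. Its ependymal marker sum, 29.9 CPM against 14.6 to 17.0 CPM, and its thalamus marker sum, 112 CPM against 25.2 to 35.2 CPM, were also the highest of the group. The part of these tissues in its Sox9 level was not tested.

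Stroke responses differed between groups for 7 pairs of gene and comparison. Between delayed and acute tacrolimus, Gfap differed by 1.33, Vim by 1.43, Nes by 0.77, Cd44 by 1.46 and Aqp4 by 0.73 on the log2 scale, by edgeR's test. Of all genes tested, 10.4% were called higher there. Between NSG and WT-Tacr delayed mice, Sox9 differed by 0.58 and Kcnj10 by 0.56, in a comparison added after the values were seen. In it 15.4% of all genes tested were called, so that 2 of the 10 genes was near the share of all genes. The first 5 rest on WT-Tacr acute mice 5m_1 and 1_5 and the last 2 on groups from different cohorts, and the part of cohort in them was not told apart from that of tacrolimus and strain.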

How the results depend on the processing

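Of 2100 recomputed values of single members, 1954 kept their side of the threshold, 111 lost and 35 gained a call, and 0 reversed. Among those called in neither fit, 104 changed sign. Counts of called members that moved by over 1.5 times are listed here. For stroke in WT mice 8 became 5 with cohort as covariate, 3 within the Imm2 cohort and 3 with an added log2 fold change above 1. This limit gave 3 as well for the other 4 stroke comparisons (5, 10, 5 and 5 before) and for delayed against acute tacrolimus, and 1 for each comparison of NSG. For WT-Tacr acute mice 5 became 0 with cohort as covariate, with only the groups compared and within Imm2. For WT-Tacr delayed mice 10 became 3 with the covariate. For NSG mice 5 became 3 with only the groups compared. Delayed against acute tacrolimus went from 5 to 3 with the covariate and to 0 with only the groups compared or within the TF cohort. Non-stroked NSG against WT and against Rag2-/- mice each went from 2 to 5 with only the groups compared. Calls over all genes moved the same way, which was not counted for the added limit. For stroke in WT mice 4579 became 2096 with the covariate and 1528 within Imm2. For WT-Tacr acute mice 1454 became 52 with the covariate and 35 with only the groups compared. WT-Tacr delayed went from 9393 to 1533 and NSG from 3726 to 792. Delayed against acute went from 3465 to 1583, 0 and 0. Non-stroked NSG went from 1662 to 2511 against WT and from 1078 to 1483 against Rag2-/- mice. The cause was not tested. Leaving out 1 mouse at a time gave 6 to 8 called members for stroke in WT, 1 to 7 in WT-Tacr acute, 3 to 5 in Rag2-/-, 4 to 5 in NSG and 9 to 10 in WT-Tacr delayed mice. It gave 0 to 6 for WT-Tacr acute against WT, 0 to 6 for delayed against acute, 1 to 2 for NSG against Rag2-/-, 2 for NSG against WT mice, and 0 for the other comparisons. Calls over all genes with 1 mouse left out were counted only where a WT-Tacr mouse was left out.

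Non-stroked mice share numbers in their labels, but no source says that they were paired. Deviations of same-numbered mice correlated at -0.258 to 0.108, above 0.1 in 1 of 8 pairs. With the replicate block, 6 members were called for NSG against WT, 5 for NSG against Rag2-/- and 0 for Rag2-/- against WT mice. Over all 16181 genes tested, 2501, 1549 and 1 were called. The same mice without the block gave 6, 6 and 0 members, and 2292, 1940 and 1 of all genes.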
